A study of Mus musculus with 19 samples.

Results

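The genes described here encode the proteins of the mitochondrial ribosome and were read in cells of E0771, a carcinoma line from the mouse mammary gland, recovered from tumors. They were chosen by name: every row of the deposited count table whose symbol was Mrpl or Mrps followed by a number and at most 1 letter, which gave 77 of 39017 genes. Of these, 48 had Mrpl symbols, given to large-subunit proteins, and 29 had Mrps symbols, given to small-subunit proteins, and 76 had enough counts to be tested among 16352 genes. The remaining gene, Mrpl53, had 0 to 2 counts in each library, too few to be tested. Of its 735 exon bases, 640 lie inside the exons of Gm42688 on the same strand. Whether this overlap lowered its counts was not tested. Symbols are not always places: the products of Mrps18a and Mrps30 sit in the large subunit, and that of Mrps36 is a component of the 2-oxoglutarate dehydrogenase complex, so counts below are given by symbol. Mrpl33 had no row and was not analysed here.

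All tumors came from E0771 cells carrying the red fluorescent protein mCherry, placed in a mammary fat pad of mice of the c57bl6 strain, and mCherry-positive cells were sorted from the dissociated tumors before RNA was extracted. Lean hosts (sample names with Chow) and obese hosts (sample names with HFD, a high-fat diet) were sampled at midpoint, day 14, and at endpoint, day 21. The comparisons used 4 lean and 5 obese libraries at midpoint and 4 lean and 5 obese libraries at endpoint, each from its own tumor. Another lean endpoint library, replicate 4, was left out because its counts stop on chromosome 5.

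Mitochondria keep a small genome that encodes a few subunits of the respiratory chain and the ribosomal RNAs needed to translate them. All protein subunits of that ribosome are encoded in the nucleus, made in the cytosol and imported. The mitochondrial ribosome has lost ribosomal RNA and gained proteins relative to its bacterial ancestor, and its small subunit decodes the message while its large subunit joins the amino acids. Tumor cells with active respiration depend on this machinery for the mitochondrially encoded subunits of their respiratory complexes.

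The 18 libraries held 44174080 to 56996252 counts. They differed in a trend with the GC content of genes. The slope, taken over each gene's deviation from its mean over the libraries, was 0.26 ± 0.17 log2 CPM (CPM are counts per 1000000, on the TMM scale) per 10 percentage points of GC in lean and 0.95 ± 0.46 in obese libraries at midpoint (SD, n = 4 and 5). At endpoint the slopes were -0.56 ± 0.35 and -0.70 ± 0.18 (SD, n = 4 and 5), below every midpoint slope. RNA of the mitochondrial genome took 8.95 to 12.3% of the counts in lean midpoint, 5.80 to 8.06% in obese midpoint, 17.1 to 44.7% in lean endpoint and 17.1 to 24.4% in obese endpoint libraries. Of 9 epithelial markers Krt8 alone passed the filter on low counts, at 13.4 to 55.9 CPM, and Epcam was at 0 to 0.281 CPM, so the defining epithelial genes were nearly absent from these carcinoma cells. Markers of other cells were present despite the sort. The 9 fibroblast markers summed to 1092 CPM at least and 2979 at most, with Col3a1 at 753.8 to 2553 CPM of the library total. Pdgfra had 58.5 to 460.9 and Pdgfrb 51.1 to 311.3 CPM. The others were lower: Dcn had 0.2 to 49.1, Lum 0 to 17.4 and Col1a1 0.306 to 15.7 CPM. Col1a2 had 0.287 to 7.61, Postn 0.638 to 3.95 and Fap 0 to 0.611 CPM. Whether the E0771 cells express these fibroblast markers was not tested. The 11 macrophage and monocyte markers had a mean log2 CPM of 5.06 ± 0.62 in lean and 3.86 ± 0.38 in obese midpoint libraries (SD, n = 4 and 5). At endpoint it was 4.23 ± 0.57 and 4.03 ± 0.98 (SD, n = 4 and 5). Of the 9 pan-leukocyte markers, none at 0 throughout, Arhgdib made up most of the summed level, at 486.9 to 1510 CPM of the library total, whereas Ptprc, which defines leukocytes, had 0.579 to 27.5 CPM. The 9 summed to 1224 to 1457 CPM in lean midpoint, 1351 to 1630 in obese midpoint, 597.6 to 912.5 in lean endpoint and 659.8 to 934.4 in obese endpoint libraries. Their mean log2 CPM, in which each marker counts equally, was 5.10 ± 0.39, 4.17 ± 0.27, 4.01 ± 0.49 and 4.14 ± 0.71 in the same order (SD, n = 4, 5, 4 and 5), so at midpoint it was lower in obese libraries, where the sum was higher.

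Most mitochondrial ribosomal protein genes were well expressed. Per kilobase of exon, the median over the 76 genes was 19.9 CPM, against 3.99 CPM over all genes tested. The highest was Mrpl52 with 84.3 ± 37.9 CPM per kb (SD, n = 18), followed by Mrpl42 with 77.6 ± 13.3 and Mrpl41 with 72.0 ± 32.4 CPM per kb. Their spreads over libraries overlap, so the order among these 3 large-subunit genes is not resolved. The lowest were Mrpl23 with 0.937, Mrps34 with 1.26 and Mrps10 with 2.50 CPM per kb, although in bacteria the homologs of Mrpl23 and Mrps10 are core subunits present once in each ribosome. Mrps10 has 8079 annotated exon bases, which lowers its value per kilobase.

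Some of these levels are uncertain because genes share exons. By the exon positions deposited with the counts, 26 of the 77 genes overlap exons of another gene, and 3 of them with over 50% of their exon bases. These were Mrpl53, Mrps34, with 77.8% inside Mapk8ip3 on the opposite strand and Nme3 on the same strand, and Mrps25, with 53.7% inside Nr2c2 on the opposite strand. Whether the counting used strand is not given in the sources used here. Mrps34 had 48 to 206 counts in each library, so its values below rest on few reads.

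**Figure D1:**
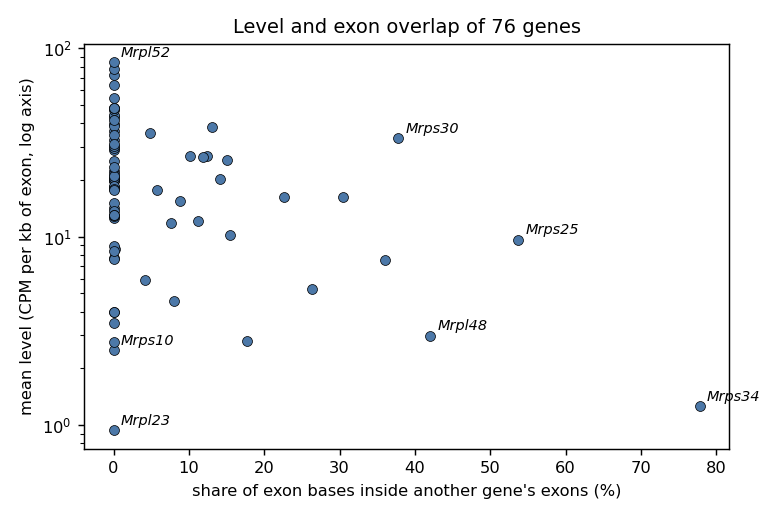
Mean level over 18 libraries, in CPM per kb of exon on a log axis, against the share of exon bases that lie inside the exons of another gene, with 1 point for each of the 76 genes tested. Mrps34, at 77.8% overlap, had 1.26 CPM per kb, whereas Mrpl23 was lower, at 0.937, with no overlap.

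Averaged over the 76 genes, the level was highest in obese midpoint tumors and lowest at endpoint in either host. The mean log2 CPM of each library was 4.94, 4.92, 4.82 and 5.17 in lean midpoint and 5.19, 5.41, 5.39, 5.07 and 5.21 in obese midpoint tumors. At endpoint it was 4.64, 4.79, 4.53 and 4.69 in lean and 4.64, 4.72, 4.72, 4.58 and 4.41 in obese tumors. Every endpoint library lay below every midpoint library, lean and obese libraries overlapped at both times, and lean midpoint replicate 4 was higher than 1 obese midpoint library. The Mrpl and the Mrps genes followed the same order of groups: their means were 5.11 and 4.73 in lean midpoint, 5.39 and 5.03 in obese midpoint, 4.80 and 4.43 in lean endpoint and 4.75 and 4.39 in obese endpoint libraries. In bulk RNA, fewer cells of a type and less RNA per cell cannot be told apart.

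**Figure D2:**
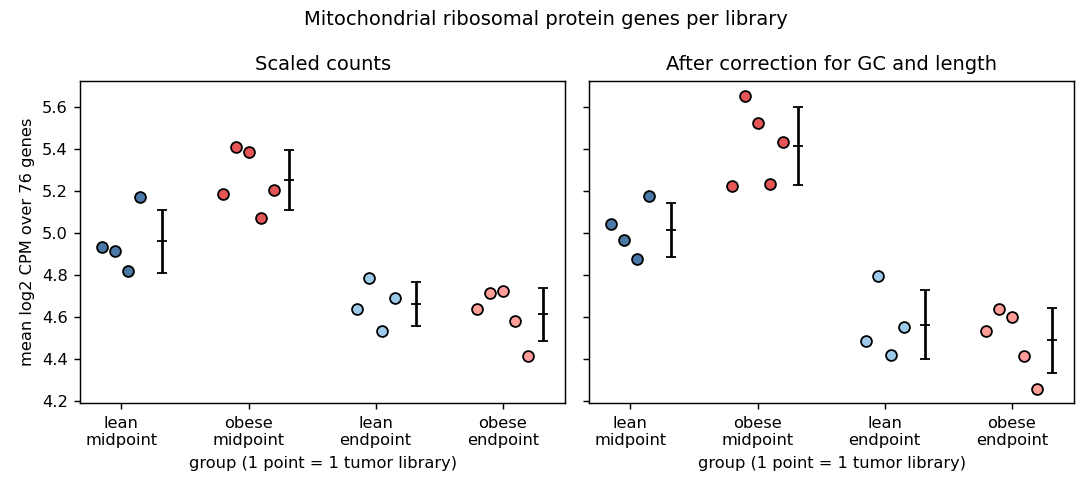
Mean log2 CPM over the 76 genes in each tumor library (points) with the group mean ± SD (bars), from scaled counts at left and after correction for GC content and length at right. Endpoint libraries, at 4.41 to 4.79, lie below midpoint libraries, at 4.82 to 5.41, in the left panel, and the groups keep this order in the right panel.

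The comparison of obese with lean hosts at midpoint asks what obesity of the host goes with in the sorted cells. Of the 76 genes, 36 rose and 2 fell, with edgeR's quasi-likelihood test and an adjusted p under 0.05. Over all genes tested, 16.7% rose and 12.8% fell (29.5% in either direction). The median log2 fold change of the 76 genes was 0.48, against -0.001 over all genes, and 61 of the 76 lay above 0. The 36 were 21 of 47 Mrpl and 15 of 29 Mrps genes. Genes numbered within the bacterial set, up to Mrpl36 and Mrps21, rose in 19 of 43 cases, and those numbered past it in 17 of 33. This split is by number alone and the second class includes Mrps36, so it does not separate inherited from gained proteins.

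Mrpl28, a large-subunit protein with a bacterial homolog, had 37.7, 29.9, 27.1 and 45.4 CPM in the lean and 42.8, 93.9, 89.2, 42.8 and 54.8 CPM in the obese midpoint libraries. Obese replicates 2 and 3 were far above the rest, and the lowest obese values lay below the highest lean value. It rose by 0.89 ± 0.24 on the log2 scale (SE, n = 4 and 5, edgeR adjusted p = 0.0304). Mrps26, a small-subunit protein without a bacterial counterpart, had 33.2, 28.4, 27.4 and 47.1 CPM in lean and 42.3, 85.9, 79.9, 44.3 and 59.6 CPM in obese libraries, again with replicates 2 and 3 highest and an overlap of the groups. It rose by 0.87 ± 0.22 on the log2 scale (SE, edgeR adjusted p = 0.0304). Mrps34 had the largest increase, 0.97 ± 0.33 (SE, edgeR adjusted p = 0.0372), from the low counts and shared exons described above.

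Both genes that fell had their lowest values in obese replicates 2 and 3, where Mrpl28 and Mrps26 were highest. Mrpl1, whose bacterial homolog forms the mobile stalk that releases used transfer RNA, had 8.21, 15.8, 16.8 and 8.67 CPM in lean and 10.9, 1.71, 1.90, 6.67 and 3.36 CPM in obese midpoint libraries. Obese replicate 1 exceeded lean replicates 1 and 4, so the groups overlap. It fell by 1.33 ± 0.41 on the log2 scale (SE, edgeR adjusted p = 0.0313). Mrps31, a small-subunit protein, had 12.9, 25.0, 23.4 and 13.4 CPM in lean and 17.5, 4.24, 5.10, 11.01 and 8.96 CPM in obese libraries, and fell by 0.99 ± 0.32 (SE, edgeR adjusted p = 0.0323). Obese replicate 1 again lay above the lowest lean values.

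The groups were fully apart in 7 genes, all higher in every obese than in every lean midpoint library, among them Mrpl4, Mrpl9, Mrpl37 and Mrps30. Over all genes 4.90% were higher and 3.14% lower without overlap. Mrpl4, which lines the tunnel through which the new chain leaves, had 26.1, 22.6, 23.3 and 29.2 CPM in lean and 30.9, 62.5, 51.2, 32.02 and 36.3 CPM in obese libraries. Its log2 fold change was 0.75 ± 0.24 (SE, edgeR adjusted p = 0.0340).

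The calls at midpoint were close to the threshold, with a lowest adjusted p of 0.0304, and depended on single libraries. Neither a member nor any other gene was called, that is 0%, without lean midpoint replicate 2 or 3, without obese midpoint replicate 2 or 3, when the compared groups were fitted alone, or with all 19 libraries. Without lean midpoint replicate 1 the number was 8 of 76 (15.6% of all genes), and without obese midpoint replicate 5 it was 22 (16.1% of all genes). With no filter on low counts it was 14 (12.4% of all genes). Other settings gave more: 47 by DESeq2 (37.0% of all genes), 54 by limma-voom (51.7%) and 48 with a filter of 5 CPM (49.7%). Without obese midpoint replicate 1 it was 55 (48.8%). The replicate block together with the GC and length correction called 0 members (0.0062% of all genes). A fit that held the pan-leukocyte mean constant also called 0 of all genes. That mean was 4.525 to 5.358 in lean and 3.84 to 4.578 in obese midpoint libraries. It thus varied with diet, and the fit cannot tell the markers and diet apart. The part of the marker levels was not tested. The median stayed between 0.35 and 0.54 in all 31 alternatives run.

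At endpoint the same comparison of obese with lean hosts called 0 of the 76 genes by edgeR's quasi-likelihood test, and 0 by DESeq2 and by limma-voom. Only 1 of the 76 had an unadjusted p under 0.05, against 4.89% of all genes, and 0.00612% of all genes were called. The median log2 fold change was -0.06, with standard errors of single genes between 0.14 and 0.41. Differences of that size, and also some larger ones, could therefore not be detected. The smallest difference that could be detected was not determined. The gene with the smallest p was Mrpl49, a large-subunit protein, at 71.5, 58.0, 45.6 and 55.1 CPM in lean and 51.0, 49.4, 49.8, 39.5 and 40.3 CPM in obese endpoint libraries, with overlapping groups. Its log2 fold change was -0.32 ± 0.15 (SE, edgeR adjusted p = 0.989). For Mrpl22 and Mrps28, next in order of p, the log2 fold changes were -0.30 ± 0.17 and -0.31 ± 0.17 (SE, edgeR adjusted p = 0.989 for both).

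Whether the diet difference changed with time was tested by the interaction term. By edgeR's quasi-likelihood test 0 of the 76 genes were called, although 39 had an unadjusted p under 0.05, against 33.3% of all genes, of which 0% were called. The median interaction was -0.55 on the log2 scale, that is, a smaller obese excess at endpoint. DESeq2 called 6 members (9.52% of all genes) and limma-voom 37 (31.3% of all genes), and edgeR called 41 without obese midpoint replicate 1 (34.8% of all genes), so the call depends on the tool and on that library. The difference between the diet effect at midpoint and that at endpoint is therefore not settled by these tests.

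**Figure D3:**
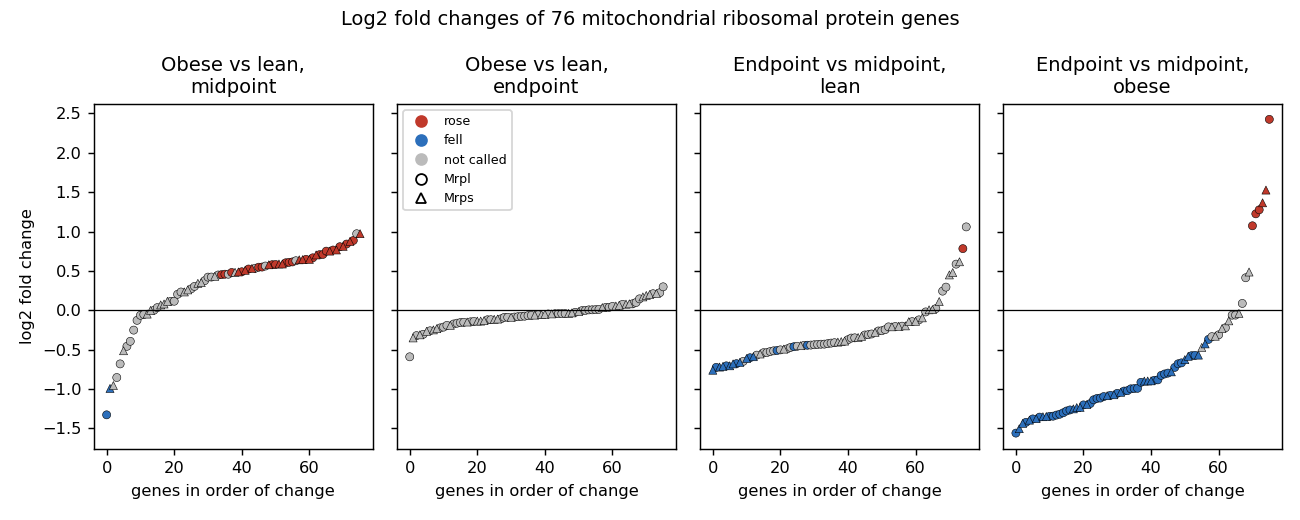
Log2 fold changes of the 76 genes in order of size for 4 comparisons, with circles for Mrpl and triangles for Mrps genes, red for genes that rose, blue for genes that fell and grey for genes not called. Calls fill most of the fourth panel, with 57 fallen and 6 risen, whereas the second panel holds none.

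From midpoint to endpoint in obese hosts most of the set fell while a few genes rose. Of the 76 genes 57 fell and 6 rose by edgeR's quasi-likelihood test, where 36.1% of all genes fell and 37.8% rose (73.9% in either direction). The median log2 fold change was -0.91, against -0.001 over all genes. Of 47 Mrpl genes 36 fell and 4 rose, and of 29 Mrps genes 21 fell and 2 rose. In 54 genes every endpoint library was below every midpoint library and in 5 genes above it, where 28.9% of all genes lay wholly below and 31.3% wholly above. The mean log2 CPM of the pan-leukocyte markers was 4.17 at midpoint and 4.14 at endpoint in obese hosts, with 3 of the 9 risen and 4 fallen, while their sum, mostly Arhgdib, was lower at endpoint, as was Krt8. A fit that held the pan-leukocyte mean called 63 members (74.2% of all genes). Sampling time and any difference in how the tumors of the 2 days were handled cannot be told apart.

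The largest decreases were those of Mrpl28, Mrps24 and Mrps18a. Mrpl28 came down from the midpoint values given above to 22.6, 23.5, 23.0, 20.7 and 19.96 CPM, a log2 fold change of -1.56 ± 0.22 (SE, 5 against 5 libraries, edgeR adjusted p = 6.5e-06). The obese endpoint libraries lay within a narrow band, below the lowest midpoint value. Mrps24, a small-subunit protein, had 16.1, 36.2, 32.4, 18.9 and 23.1 CPM at midpoint and 9.18, 9.004, 9.68, 8.62 and 8.17 CPM at endpoint, with no overlap. Its log2 fold change was -1.50 ± 0.22 (SE, edgeR adjusted p = 8.6e-06). Mrpl41, among the highest in level per kilobase, had 67.5, 108.9, 108.7, 66.5 and 85.9 CPM at midpoint and 35.8, 36.9, 35.8, 34.3 and 28.02 CPM at endpoint, a log2 fold change of -1.36 ± 0.18 (SE, edgeR adjusted p = 3.0e-06).

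The 6 genes that rose were Mrpl1, Mrps31, Mrps22, Mrpl50, Mrpl47 and Mrpl32. Mrpl1 went from the 1.71 to 10.9 CPM of the obese midpoint libraries to 28.1, 21.6, 27.5, 27.4 and 27.8 CPM at endpoint, with no overlap, and rose by 2.42 ± 0.41 on the log2 scale (SE, edgeR adjusted p = 2.8e-05). Mrps31 reached 29.7, 28.1, 25.3, 27.7 and 24.4 CPM and rose by 1.53 ± 0.30 (SE, edgeR adjusted p = 0.000174). Every one of its endpoint libraries was above every obese midpoint library. Mrps22, whose human homolog is mutated in a fatal neonatal disorder of mitochondrial translation, had 26.6, 3.45, 7.88, 14.5 and 10.5 CPM at midpoint and 33.9, 30.3, 34.5, 34.2 and 29.5 CPM at endpoint. It rose by 1.36 ± 0.35 (SE, edgeR adjusted p = 0.00154), and obese midpoint replicate 1 was its highest midpoint value, as it was for Mrpl1 and Mrps31. The proteins of these genes lie in both subunits, 4 in the large and 2 in the small.

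**Figure D4:**
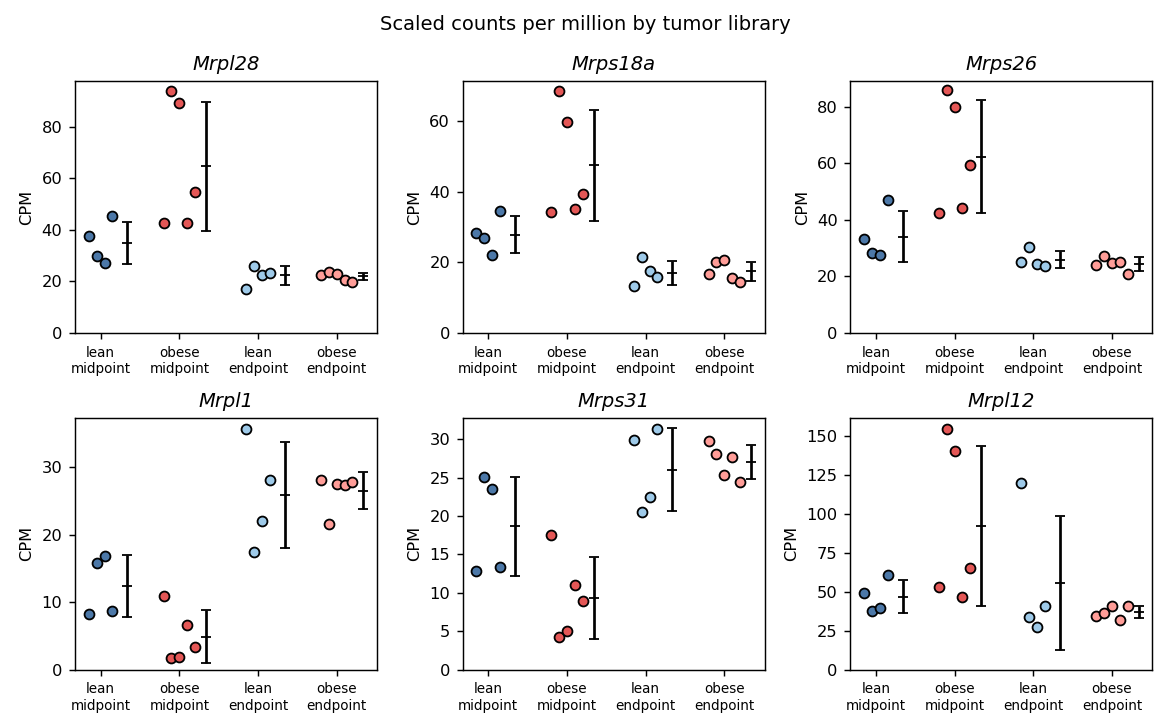
CPM of 6 genes in each tumor library (points) with the group mean ± SD (bars), every axis starting at 0. Mrpl28, Mrps18a and Mrps26 are highest in obese midpoint replicates 2 and 3 and low at endpoint, Mrpl1 and Mrps31 run the other way, and Mrpl12 has 1 lean endpoint library at 119.5 CPM.

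In lean hosts fewer genes passed the test over the same interval. Of the 76 genes 15 fell and 1 rose by edgeR's quasi-likelihood test, where 9.50% of all genes fell and 21.4% rose (30.9% in either direction). The median log2 fold change was -0.40, against 0.04 over all genes, and 64 of the 76 lay below 0. The difference between the hosts over time is the interaction given above, with 0 genes called. The largest decreases were those of Mrps36, Mrpl4 and Mrps11. Mrps36, whose protein belongs to the 2-oxoglutarate dehydrogenase complex of the citric acid cycle, had 6.75, 6.16, 5.76 and 5.63 CPM at midpoint and 1.92, 4.54, 3.21 and 4.61 CPM at endpoint, with no overlap, a log2 fold change of -0.76 ± 0.25 (SE, 4 against 4 libraries, edgeR adjusted p = 0.0297).

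Mrpl4 went from the lean midpoint values above to 7.88, 19.4, 16.4 and 17.4 CPM, a log2 fold change of -0.73 ± 0.26 (SE, edgeR adjusted p = 0.0383), with no overlap and with lean endpoint replicate 1 lowest. Mrps11 had 10.7, 9.04, 6.98 and 12.9 CPM at midpoint and 4.32, 7.81, 6.13 and 5.66 CPM at endpoint, a log2 fold change of -0.72 ± 0.24 (SE, edgeR adjusted p = 0.0314), and its groups overlapped. The single gene that rose, Mrpl50, a large-subunit protein, had 26.3, 37.8, 38.6 and 31.0 CPM at midpoint and 63.6, 41.0, 62.4 and 63.0 CPM at endpoint, with no overlap. Its log2 fold change was 0.78 ± 0.21 (SE, edgeR adjusted p = 0.00901). In obese hosts the same gene went from 33.7, 15.3, 25.5, 25.4 and 21.8 CPM to 62.3, 53.8, 59.6, 60.5 and 58.4 CPM, a log2 fold change of 1.28 ± 0.19 (SE, edgeR adjusted p = 8.9e-06).

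The number called in lean hosts depended on single libraries, as did the share of all genes called. It was 2 without lean endpoint replicate 3 (20.7% of all genes) and 35 without obese midpoint replicate 2 (38.8%). It was 4 and 6 without lean midpoint replicates 4 and 1 (20.2 and 19.5%), and 8 and 10 without lean endpoint replicates 5 and 1 (23.5 and 23.0%). It was 26 and 27 without obese midpoint replicate 3 and lean midpoint replicate 3 (33.8 and 32.6%), and 33 without lean endpoint replicate 2 (38.2%). In the fit that held the pan-leukocyte mean, which was 5.10 at midpoint and 4.01 at endpoint in lean hosts, it was 3 (17.2%). In obese hosts the number called stayed between 61 and 65 with any 1 library left out (70.8 to 76.2% of all genes).

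The log2 fold changes were correlated with the GC content of the genes, and the libraries also differed in their trend with GC. The libraries differed in mitochondrial RNA and in marker levels as well, and the cause of the correlation was not tested. Over the 76 genes Pearson's r between log2 fold change and GC content was 0.54 for obese against lean at midpoint, -0.33 for time in lean and -0.50 for time in obese hosts. These are correlations across genes of the same libraries. Of the 26 genes with the lowest GC, 38.6 to 46.9%, 7 rose and 2 fell in obese against lean midpoint tumors, whereas of the 25 with the highest, 52.5 to 60.4%, 17 rose and 0 fell. A fit that removed the trends with GC content and length in each library called 25 members at midpoint, all of which rose, where 8.26% of all genes rose and 3.65% fell (11.9% in either direction). Of the 36 genes that rose without correction 15 also rose with it, among them Mrps26, Mrpl22, Mrpl58, Mrpl37 and Mrps30, whereas Mrpl28, Mrps34, Mrps18a, Mrpl1 and Mrps31 were not called.

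Over time in obese hosts the corrected fit had 53 genes that fell and 4 that rose, where 32.1% of all genes fell and 25.4% rose (57.5% in either direction). Of the 57 genes that fell without correction 44 fell with it, and Mrpl1 and Mrps22 rose in both fits. The correction turned the sign of 6 of the 63 called genes. Mrpl50 turned from risen to fallen (-0.33 corrected) and Mrps15 from fallen to risen (0.49 corrected), and Mrpl23, Mrpl32, Mrpl38 and Mrps12 were no longer called. In lean hosts 27 genes were called with correction, of which 26 fell and 1 rose, where 24.4% of all genes were called in either direction, and 7 genes fell in both fits, namely Mrpl10, Mrpl35, Mrpl48, Mrpl51, Mrps16, Mrps27 and Mrps36.

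After the correction the trend with GC among the 76 genes did not vanish but turned. Pearson's r was -0.40 at midpoint, 0.75 for time in lean and 0.65 for time in obese hosts, across the same 76 genes. Over time in obese hosts the median corrected change was then -1.96 on the log2 scale in the 26 genes of lowest GC and -0.24 in the 25 of highest GC. The direction of the median of all 76 genes was the same in both fits, whereas the size for single genes depended on the correction, as did the direction of 6 called genes over time in obese hosts, 1 in lean hosts and 2 at midpoint.

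**Figure D5:**
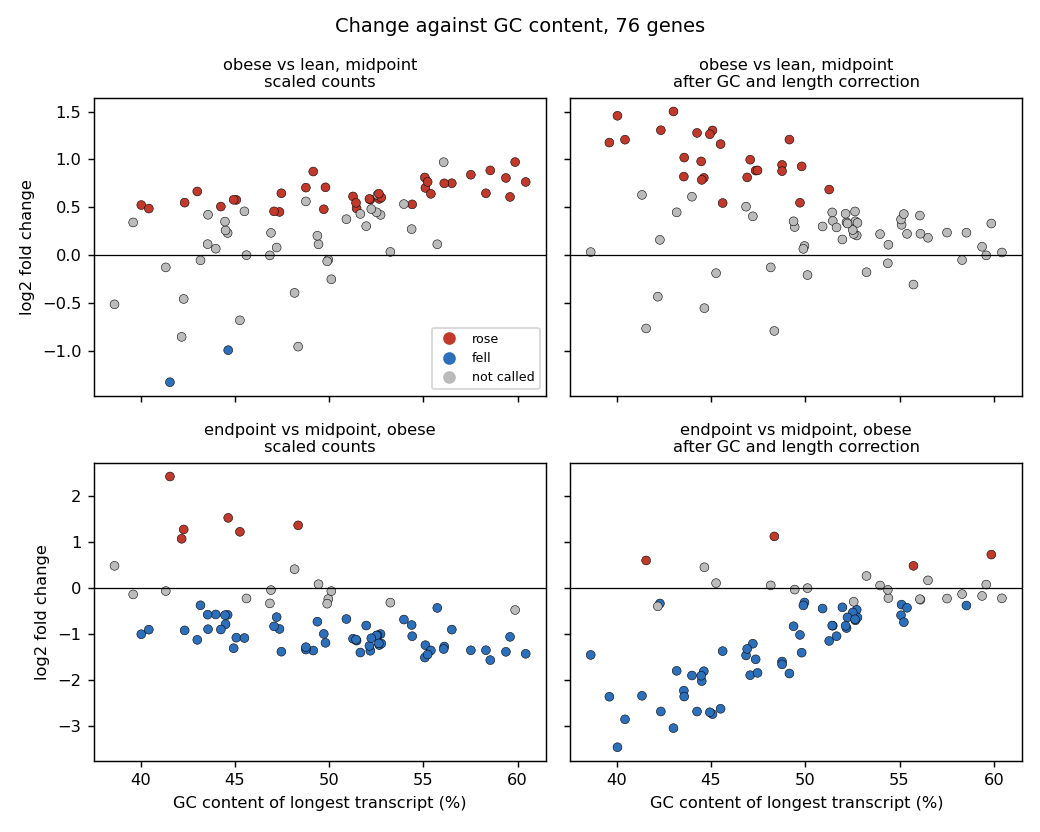
Log2 fold change against the GC content of the longest transcript (percent) for the 76 genes, for obese against lean at midpoint (top) and endpoint against midpoint in obese hosts (bottom), from scaled counts (left) and after correction for GC and length (right). The slope across genes turns between left and right, with r of 0.54 and -0.40 in the top row and -0.50 and 0.65 in the bottom row.

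A single bacterial protein, S18, has 3 homologs in the mouse, Mrps18a, Mrps18b and Mrps18c, whose products occupy different places: that of Mrps18a sits in the large subunit despite its name, and those of the others in the small subunit. All 3 fell over time in obese hosts. Mrps18a had 34.2, 68.5, 59.8, 35.2 and 39.4 CPM at midpoint and 16.7, 20.02, 20.6, 15.7 and 14.5 CPM at endpoint, a log2 fold change of -1.44 ± 0.21 (SE, edgeR adjusted p = 8.0e-06). Mrps18b had 36.5, 73.5, 65.0, 42.2 and 46.8 CPM and then 22.5, 24.5, 27.3, 21.0 and 19.9 CPM, a log2 fold change of -1.20 ± 0.19 (SE, edgeR adjusted p = 2.1e-05). Mrps18c, the least abundant in CPM, had 19.2, 17.7, 23.5, 16.1 and 14.6 CPM and then 10.1, 11.02, 11.6, 11.5 and 8.83 CPM, a log2 fold change of -0.78 ± 0.16 (SE, edgeR adjusted p = 0.000253). No endpoint value of the 3 genes reached a midpoint value in obese hosts. In the corrected fit all 3 fell as well, by 0.74, 0.67 and 2.02 on the log2 scale, so Mrps18c then had the largest decrease. In obese against lean midpoint tumors Mrps18a and Mrps18b rose, by 0.77 ± 0.22 and 0.64 ± 0.20 (SE, edgeR adjusted p = 0.0305 and 0.0324), and Mrps18c, at 0.26 ± 0.17 (SE), was not called (edgeR adjusted p = 0.237).

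Nuclear genes for mitochondrial proteins often carry sites of NRF1, of the ETS family, to which GABPA belongs, and of YY1 close to their start. The S18 homologs all fell over time in obese hosts, as did 57 of the 76 genes, but did not move alike at midpoint. Mrpl28 and Mrpl1 had the largest decrease and increase over time in obese hosts. The promoters of these genes are shown, from 250 bases before to 50 after the RefSeq start (GRCm38.p6). The windows are Mrps18a (chr17:46110754-46111053, plus strand), Mrps18b (chr17:35916391-35916690, minus strand), Mrps18c (chr5:100798509-100798808, plus strand), Mrpl28 (chr17:26123253-26123552, plus strand) and Mrpl1 (chr5:96209865-96210164, plus strand). Capitals mark CGCATGCGC for NRF1, CCGGAAG for the ETS family and AAGATGGCG for YY1, or their reverse complements, each printed on the strand of the gene.
Mrps18a: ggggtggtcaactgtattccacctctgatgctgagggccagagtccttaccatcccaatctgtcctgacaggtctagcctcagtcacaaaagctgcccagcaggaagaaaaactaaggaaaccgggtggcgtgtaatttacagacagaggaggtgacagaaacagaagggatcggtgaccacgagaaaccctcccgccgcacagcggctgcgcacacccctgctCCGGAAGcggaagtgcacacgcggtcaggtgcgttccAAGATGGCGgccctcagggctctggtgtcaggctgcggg
Mrps18b: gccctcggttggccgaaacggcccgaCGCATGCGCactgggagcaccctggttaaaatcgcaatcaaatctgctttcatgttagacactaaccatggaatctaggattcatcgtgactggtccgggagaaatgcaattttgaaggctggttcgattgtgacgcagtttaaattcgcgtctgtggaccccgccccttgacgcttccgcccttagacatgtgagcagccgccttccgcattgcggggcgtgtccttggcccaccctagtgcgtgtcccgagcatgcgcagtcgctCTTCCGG
Mrps18c: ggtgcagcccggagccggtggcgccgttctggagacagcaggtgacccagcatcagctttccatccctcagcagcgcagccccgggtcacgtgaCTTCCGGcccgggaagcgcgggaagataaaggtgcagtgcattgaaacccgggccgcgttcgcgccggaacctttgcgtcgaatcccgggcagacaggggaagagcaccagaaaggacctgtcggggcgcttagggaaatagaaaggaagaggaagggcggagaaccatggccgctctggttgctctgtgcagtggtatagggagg
Mrpl28: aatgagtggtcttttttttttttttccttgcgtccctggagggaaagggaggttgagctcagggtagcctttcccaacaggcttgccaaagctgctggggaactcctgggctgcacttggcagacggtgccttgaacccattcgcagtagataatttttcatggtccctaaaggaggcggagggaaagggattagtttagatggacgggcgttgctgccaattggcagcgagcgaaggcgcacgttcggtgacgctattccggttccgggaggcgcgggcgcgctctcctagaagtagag
Mrpl1: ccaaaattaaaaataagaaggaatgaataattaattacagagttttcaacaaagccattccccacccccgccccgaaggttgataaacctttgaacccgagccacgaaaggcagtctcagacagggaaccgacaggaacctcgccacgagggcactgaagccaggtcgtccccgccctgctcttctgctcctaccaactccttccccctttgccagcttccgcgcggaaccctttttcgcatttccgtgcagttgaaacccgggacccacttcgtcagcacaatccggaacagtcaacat
An ETS-family match stands in each S18 homolog, together with a YY1 match in Mrps18a and an NRF1 match in Mrps18b. The windows of Mrpl28 and Mrpl1 hold none of these letters.

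RefSeq windows were matched for 68 of the 77 genes, with 74 windows in all, and 35 of the 68 genes held at least 1 of the motifs, searched on both strands. Matches of different motifs overlapped in 0 of the 74 windows. The NRF1 letters stood in 9.46% of the 74 windows, against 3.36% of the windows of tested genes and 1.75% of all windows. The ETS-family letters stood in 33.8%, against 16.5% and 8.86%, and the YY1 letters in 10.8%, against 2.74% and 1.40%. Mrpl17, Mrpl22, Mrps18a, Mrps18b and Mrps27 each had a window with 2 different motifs. A match of letters is a description of the window and not a measurement of binding.

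Several genes with a defined task in translation fell with time in obese hosts. Mrpl12, the homolog of the bacterial stalk protein that recruits elongation factors and a partner of the mitochondrial RNA polymerase, had 53.2, 154.3, 140.2, 46.7 and 65.1 CPM at midpoint and 34.3, 36.4, 40.7, 31.8 and 40.7 CPM at endpoint. It fell by 1.32 ± 0.37 on the log2 scale (SE, edgeR adjusted p = 0.00342), without overlap, and was not called with correction (-0.24). In lean hosts it had 49.1, 37.7, 39.8 and 60.7 CPM at midpoint and 119.5, 33.9, 27.7 and 40.8 CPM at endpoint, with replicate 1 far above the others. Mrpl11, part of the site that stimulates the factors' GTPase, went from 25.5, 47.8, 43.4, 25.8 and 31.1 CPM to 16.6, 15.98, 15.6, 12.5 and 10.9 CPM in obese hosts, and fell by 1.28 ± 0.21 (SE, edgeR adjusted p = 2.0e-05). Its ranges did not overlap.

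Mrpl58, a peptidyl-tRNA hydrolase that frees stalled ribosomes, rose in obese midpoint tumors from 41.6, 37.0, 33.0 and 49.6 CPM in lean to 45.4, 89.5, 81.4, 49.7 and 63.4 CPM, by 0.71 ± 0.21 on the log2 scale (SE, edgeR adjusted p = 0.0309), with overlap between the groups. It then fell over time by 1.19 ± 0.20 in obese hosts (SE, edgeR adjusted p = 3.1e-05), to 29.4, 34.2, 30.2, 26.4 and 24.7 CPM. Both calls held with correction. Mrps12, the protein of the decoding centre, rose by 0.75 ± 0.24 at midpoint (SE, edgeR adjusted p = 0.0317) and fell by 0.90 ± 0.22 over time in obese hosts (SE, edgeR adjusted p = 0.00122), but with correction it was called in neither comparison, at 0.18 and 0.17. Mrps27, an RNA-binding protein with pentatricopeptide repeats, fell in both hosts, by 0.68 ± 0.19 in lean and 1.08 ± 0.18 in obese hosts (SE, edgeR adjusted p = 0.0129 and 1.9e-05).

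Mrpl3, at the core of the peptidyl transferase region, and Mrps5, near the entry of the message, were among the 13 genes not called over time in obese hosts. Mrpl3 had 62.3, 34.8, 46.6, 51.5 and 49.5 CPM at midpoint and 42.1, 40.7, 48.4, 40.2 and 38.4 CPM at endpoint, with overlap, a log2 fold change of -0.22 ± 0.14 (SE, edgeR adjusted p = 0.169). For Mrps5 it was -0.33 ± 0.19 (SE, edgeR adjusted p = 0.116). With correction both fell, Mrpl3 by 1.36 and Mrps5 by 1.46 on the log2 scale, so their place among the uncalled genes depends on the handling of GC.

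The 76 genes did not form a single pattern. Over the 18 libraries the Pearson correlation of each gene's log2 CPM with the mean of the other 75 had a median of 0.94, was above 0.8 in 51 genes, between 0 and 0.8 in 16 and below 0 in 9. The values are a description of libraries that share their scaling and their time points. The 9 were Mrpl1 (-0.93), Mrpl50 (-0.92), Mrpl47, Mrps31, Mrps22, Mrpl32, Mrps9, Mrpl39 and Mrpl18. Their GC content ran from 38.6 to 50.1%, in the lower part of the range of the set. The 5 other genes with the pattern most like the mean of the members were Rer1 (r = 0.991), Psmb2 (0.990), Psmb1 (0.989), Eif1ad (0.989) and Snu13 (0.988), with GC contents of 45.1 to 51.0%.

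Genes that work with the ribosome were read from fixed lists. Of 5 mitochondrial ribosome proteins without an Mrp symbol, Aurkaip1 and Gadd45gip1 rose and Ptcd3 fell in obese midpoint tumors. Over time in obese hosts 4 fell, among them Dap3, a GTP-binding small-subunit protein (-0.74 ± 0.14, SE, edgeR adjusted p = 0.000113), and Ptcd3 rose (2.27 ± 0.35, SE, edgeR adjusted p = 1.4e-05). Of 23 genes for ribosome assembly and ribosomal RNA maturation, 8 rose and 2 fell at midpoint, where 16.7% of all genes rose and 12.8% fell. Over time in obese hosts 3 rose and 18 fell, where 37.8% of all genes rose and 36.1% fell, with a median of -0.95. With correction 2 rose and 12 fell in that comparison, where 25.4% of all genes rose and 32.1% fell. In lean hosts 2 of the 23 rose and 4 fell over time, where 21.4% of all genes rose and 9.50% fell. At endpoint 0 genes of any of the 5 lists were called between obese and lean hosts.

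Of 12 translation factors 3 rose and 3 fell in obese midpoint tumors, and 3 rose and 6 fell over time in obese hosts. Over all genes 16.7% rose and 12.8% fell in the first and 37.8% rose and 36.1% fell in the second of these comparisons. Tufm, the elongation factor that delivers transfer RNA, fell over time in obese hosts by 1.29 ± 0.23 on the log2 scale (SE, edgeR adjusted p = 4.3e-05). Oxa1l, which inserts new chains into the inner membrane, fell by 1.11 ± 0.17 (SE, edgeR adjusted p = 1.2e-05). Mtif2, the initiation factor, rose in the same comparison by 3.12 ± 0.35 (SE, edgeR adjusted p = 5.8e-07). Of 6 genes for mitochondrial transcription and RNA stability, 3 rose over time in obese hosts, Lrpprc, Tfam and Tfb2m, and Polrmt, the RNA polymerase itself, fell by 1.48 ± 0.24 (SE, edgeR adjusted p = 2.0e-05).

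Of 8 tested regulators, 4 rose and 3 fell over time in obese hosts, and 3 rose and 3 fell at midpoint, where 73.9% and 29.5% of all genes were called. Gabpa, which binds the ETS-family letters given above, rose by 3.13 ± 0.31 on the log2 scale and Yy1 by 1.81 ± 0.30 (SE, edgeR adjusted p = 3.4e-07 and 2.2e-05), whereas Nrf1, which binds the NRF1 letters, fell by 0.62 ± 0.14 (SE, edgeR adjusted p = 0.000577). In obese against lean midpoint tumors Gabpa and Yy1 fell, by 0.87 ± 0.30 and 1.03 ± 0.30 (SE, edgeR adjusted p = 0.0412 and 0.0307), and Nrf1, Esrra and Pprc1 rose, by 0.41 ± 0.15, 0.87 ± 0.27 and 0.65 ± 0.23 (SE, edgeR adjusted p = 0.0471, 0.0314 and 0.0420). Correction for GC and length left Yy1, Nrf1 and Esrra called in both comparisons and Gabpa in the comparison over time only, and Pprc1 in neither.

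Over time in both hosts, and between hosts at midpoint, the mean shares of both mitochondrial ribosomal RNAs ran opposite to the mean of the protein genes. The large-subunit RNA, mt-Rnr2, took 4.87 to 5.65% of the counts in lean and 2.31 to 4.07% in obese midpoint libraries, and 10.5 to 15.7% in lean and 10.3 to 17.7% in obese endpoint libraries. The small-subunit RNA, mt-Rnr1, took 1.69 to 3.04%, 1.27 to 2.24%, 3.14 to 27.9% and 3.48 to 5.24% in the same order of groups. The midpoint and endpoint shares of both did not overlap within a host, and lean and obese shares of mt-Rnr2 did not overlap at midpoint. Lean endpoint replicate 1 held the 27.9%. Whether ribosomal RNA was depleted is not stated in the labels, so the shares are not levels on the scale of the protein genes.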

How the data were processed

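The members, the lists and the alternatives were chosen with earlier results of these data known. The authors deposited 1 table of counts per gene for 19 libraries, not normalized. All of its values are whole numbers, so none of the deposited columns holds an estimated count with a fractional part. TopHat, DESeq and the build mm10 are named in the submitters' processing notes, with neither version nor role. The counting tool, the name of its annotation and its strand setting were not given in the sources used here. The exon positions of each gene were deposited with the counts. Symbols were matched by identifier to GENCODE, for 37607 of 39017 genes.

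The 18 complete libraries went through edgeR 4.0.16 (R 4.3.3): filterByExpr by group, TMM scaling, a mean per group, the quasi-likelihood test and Benjamini-Hochberg adjustment over 16352 genes at 0.05. Each value per sample is a count per 1000000 (CPM) computed here on that scale. Log2 CPM used a prior count of 2. The procedure was run on simulated counts with the same spread for every gene and no trend with GC content or length. That run therefore cannot show how the procedure behaves under the GC trends of these libraries. Genes were named by rule: per contrast the 3 called members with the largest increase and decrease (or the 3 smallest p), the 3 highest and lowest per kilobase, and members named for role or family. Other named members were chosen after their values were seen.

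Alternatives were RLE scaling, DESeq2 1.42.0, no filter, a minimum of 5 CPM in at least 4 libraries, voom of limma 3.58.1 with quality weights, all 19 libraries, the compared groups alone, the replicate block, correction for GC and length by splines of 5 degrees of freedom (16122 genes), both together, the pan-leukocyte mean as a covariate, removal of mitochondrial genome and structural RNA genes, and each library left out. Leaving out lean endpoint replicate 1 and obese midpoint replicate 2 together was added after seeing the data.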

Additional observations from a re-analysis of the deposited data

Results flagged for a closer look

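Within groups of 4 or 5 libraries, 120 sets of values of named genes were searched for a library far from the others, and 5 (4.17%) were found. The sets come from the same 18 libraries, and how many such cases chance alone gives was not tested. Mrpl12 was at 119.5 CPM in lean endpoint replicate 1, against 27.7 to 40.8 CPM in the other lean endpoint libraries. Mrpl11 was at 31.3 CPM in lean midpoint replicate 4, against 20.1 to 21.4. Mrpl50 was at 41.0 CPM in lean endpoint replicate 2, against 62.4 to 63.6. Mrpl1 was at 21.6 CPM in obese endpoint replicate 2, against 27.4 to 28.1. Mrpl4 was at 13.8 CPM in obese endpoint replicate 5, against 17.8 to 19.2.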

How the results depend on the processing

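The count of members called over time in obese hosts was 63 in the main fit (73.9% of all genes). It was within 1.5 times that number under every alternative except with all 19 libraries, where it was 13 (25.7%). With 1 library left out it was 61 to 65 (70.8 to 76.2%). Between obese and lean hosts at endpoint it was 0 throughout, with at most 0.0795% of all genes called. Between obese and lean hosts at midpoint it was 38 in the main fit (29.5% of all genes). It was 14 with no filter (12.4%) and 25 with the GC and length correction (11.9%). It was 0 (0% of all genes) with all 19 libraries, with the compared groups alone and with the pan-leukocyte covariate. It was also 0 (0%) without lean endpoint replicate 1 and obese midpoint replicate 2 together. Leaving out 1 library gave 0 to 55 (0 to 48.8% of all genes). For the interaction, against 0 (0% of all genes), it was 6 by DESeq2 (9.52%) and 37 by limma-voom (31.3%). With 1 library left out it was 0 to 41 (0 to 34.8%). The interaction needs all 4 groups, so a fit of the compared groups alone was not made. Over time in lean hosts it was 16 in the main fit (30.9% of all genes). It was 27 with a filter of 5 CPM (42.3%), 29 by DESeq2 (37.4%) and 36 by limma-voom (44.7%). With all 19 libraries it was 0 (3.23%), with the GC and length correction 27 (24.4%) and with the covariate 3 (17.2%). It was 9 without the 2 libraries together (27.2%), and 2 to 35 with 1 left out (19.5 to 38.8%). With all 19 libraries, the zeros of lean endpoint replicate 4 enter the fit for most members. The cause of the other shifts was not tested. Replicate numbers were not shown to pair the samples. Of 24 same-numbered pairs 6 correlated above 0.1 and 10 below -0.1 (-0.40 to 0.55). The closest library had the same number in 10 of 54 cases, and how many cases chance gives was not tested. With the replicate block the counts were 30 at midpoint, 7 over time in lean hosts and 62 in obese hosts (26.9, 22.8 and 72.6% of all genes). With the block and the GC and length correction they were 0, 25 and 55 (0.0062, 18.5 and 55.5%). Among the members named by rule, the log2 fold change of called genes turned sign with the correction, and with the correction and block, for Mrpl50 over time in lean hosts (-0.085 and -0.104) and obese hosts (-0.331 and -0.331), Mrpl23 (0.059 and 0.046) and Mrps12 (0.171 and 0.176), both over time in obese hosts. The median over the members kept its sign in all alternatives of 4 comparisons, and at endpoint it ranged from -0.10 to 0.25. Low counts limit Mrpl23 and Mrps34, at about 1 to 5 CPM.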

Other observations

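Lean endpoint replicate 4, which was left out, had counts on chromosomes 1 to 4, where 18 of the genes lie. There they took 3650 of every 1000000 counts on those chromosomes, against 3146 to 3826 in the other lean endpoint, 2827 to 3668 in the obese endpoint, 4157 to 4872 in the lean midpoint and 4666 to 5343 in the obese midpoint libraries.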
